A study of Mus musculus with 34 samples.

Results

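A group of 7 genes of the aldehyde dehydrogenase family were followed here across a set of mouse mammary adenocarcinoma lines that differ in their glucocorticoid receptor (GR): Aldh1a1, Aldh1a7, Aldh1a2, Aldh1a3, Aldh3a1, Aldh2 and Aldh3a2. They are 7 of the 21 gene names beginning with Aldh, and 7 of the 55341 gene names counted in every library. The genes were picked by name, together with their levels and dexamethasone responses, when results of these data were already known. Levels and responses within a line are therefore given as a description, with counts of calls but no p-values.

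Aldehyde dehydrogenases oxidise aldehydes to carboxylic acids with NAD or NADP. The Aldh1a enzymes turn retinaldehyde into retinoic acid, the ligand of the nuclear retinoic acid receptors, and ALDH1 activity is widely used to mark stem-like cells of the normal and malignant mammary gland. Aldh1a7 is a rodent relative of Aldh1a1 that was first known as a phenobarbital-inducible liver enzyme. Aldh3a1 is a cytosolic enzyme, abundant in cornea, that clears aldehydes of lipid peroxidation. Aldh2 is the mitochondrial enzyme of acetaldehyde removal, and Aldh3a2 oxidises long-chain fatty aldehydes at the endoplasmic reticulum and peroxisome. GR is a nuclear receptor that moves to chromatin and switches genes on or off once it binds a glucocorticoid.

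All lines were derived from 3617 cells without their own GR (GRKO) and stably expressed a GFP-tagged mouse GR, either wild type (WT) or as Y551A, Y551A-Dim, D647V or D647V-tetra, names that are used as the labels give them. Each line was given the synthetic glucocorticoid dexamethasone (Dex, 100 nM) or ethanol (EtOH), for 2 h, after at least a day in medium with 10% stripped serum and 5 µg/ml tetracycline. The 34 libraries fall into 2 sets by library number. Set 1 holds WT, Y551A and Y551A-Dim (3 libraries per line and treatment). Set 2 holds WT again (2 per treatment), D647V and D647V-tetra (3 each). The labels mention 2 library kits used in different batches without saying which library had which, so mutant lines were compared only inside a set. A receptor form is represented by 1 line, so a substitution and any other difference between lines cannot be told apart. Nothing in the labels says that replicates were separate cultures. The p-values therefore measure the spread between these libraries, which may be technical.

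Between 44998213 and 70124595 reads were assigned to genes per library of set 1, and between 60277930 and 79776573 per library of set 2. Levels are given as CPM, a gene's reads scaled to the size of the library within its set. Only the responses of WT are compared across sets. No library lacked the receptor's transcript, Nr3c1, whose level lay between 234 and 380.0 CPM. With EtOH the Nr3c1 level of every mutant line differed from WT of the same set (edgeR). On the log2 scale the differences were 0.30 in Y551A, 0.15 in Y551A-Dim, -0.24 in D647V and -0.37 in D647V-tetra. Nr3c1 was also called with Dex in Y551A (0.13), Y551A-Dim (0.20) and D647V-tetra (-0.13, edgeR). The part of receptor level in the Aldh responses was not tested. Per1, a clock gene directly induced by GR, rose with Dex in all 6 line-by-set comparisons (edgeR), by 1.22 on the log2 scale in Y551A-Dim and by up to 3.09 in WT of set 2. The label of mammary adenocarcinoma was checked against marker genes: 9 of 10 luminal epithelial markers stayed below 1 CPM in every library, Epcam and Cldn3 at 0, while 8 fibroblast and mesenchymal markers summed to 6139 to 8131 CPM, most of it Vim. Of these 8, Dcn and Lum were below 1 CPM in every library and Col1a1 reached at most 2.44. Of 5 basal epithelial markers, 3 were below 1 CPM throughout, and Krt14 ranged from 2.46 to 19.7. Only Gata3 of the luminal list was above that level. With it the summed list moved with Dex, from 7.61 to 8.22 CPM over the EtOH libraries of WT in set 1 to a range of 19.0 to 22.04 over its Dex libraries, but from 5.90 to 7.99 with EtOH and 6.70 to 6.90 with Dex in Y551A-Dim. Its part in the results was not tested. In bulk RNA, fewer cells of a type and less RNA per cell cannot be told apart. In set 1 a single library stood apart for some of these genes. In Dex replicate 1 of Y551A-Dim, 13 of 20 genes of a list induced by low oxygen were the highest of the 18 libraries of set 1, and their summed level was 3757 CPM against 2528 to 3144 in the other 17. The immune marker Cd68 reached 9.43 CPM in it, against 2.75 in the lowest library of its group, while the other 5 immune markers were below 1 CPM in every library. Results that rest on that library are given with and without it, except where the text says otherwise. Over well-counted genes, EtOH replicate 1 of D647V-tetra in set 2 differed most from its group. The squared difference within a pair, relative to counting error, averaged 87.1 and 95.5 against replicates 2 and 3, and 20.3 between those. For Dex replicate 1 of Y551A-Dim the values were 25.8 and 36.3. Shares of all genes called are given with the D647V-tetra library included.

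Aldh1a1 (mm10 chromosome 19, 20492715 to 20643465, plus strand) and Aldh1a7 (20692953 to 20727562, minus strand) lie tail to tail, 49488 bases apart. Their reference transcripts Aldh1a1-201 and Aldh1a7-201 were 90.3% identical over 2044 aligned bases, but only 1 of 1954 windows of 100 bases in Aldh1a1-201 was found unchanged in Aldh1a7-201. Reads that match several places were not counted, per the file headers, so stretches alike in both copies add little to either count. A gene on the opposite strand, C730002L08Rik, overlaps the 5′ part of Aldh1a1, and reads were counted by strand per the same headers. RefSeq (GRCm38.p6) gave a promoter for 4 of the 7 genes, and that of Aldh1a1 at its downstream start site and that of Aldh1a7 are shown because these are the 2 members that rose with Dex in WT. Both windows hold the 250 bases before the start site, 5′ to 3′ on the gene's own strand, and the capitals mark the longest run they share base for base.
Aldh1a1, chr19:20601718-20601967, plus strand: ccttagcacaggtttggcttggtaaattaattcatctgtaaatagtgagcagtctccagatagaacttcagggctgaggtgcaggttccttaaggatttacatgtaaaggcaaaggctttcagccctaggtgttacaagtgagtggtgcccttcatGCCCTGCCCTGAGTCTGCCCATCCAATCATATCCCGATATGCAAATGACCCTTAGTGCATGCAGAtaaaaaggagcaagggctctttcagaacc
Aldh1a7, chr19:20727557-20727806, minus strand: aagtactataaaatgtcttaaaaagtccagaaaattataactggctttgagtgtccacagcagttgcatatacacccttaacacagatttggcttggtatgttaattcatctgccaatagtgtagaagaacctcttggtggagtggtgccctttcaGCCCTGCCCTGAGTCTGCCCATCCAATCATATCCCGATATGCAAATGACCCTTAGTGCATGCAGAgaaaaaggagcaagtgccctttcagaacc

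The shared run was 65 bases long, from 94 to 30 bases before both start sites. In each window 174 of the 250 bases aligned without a gap, and 165 of these were identical (94.8%). The other bases are left out of that share. The run holds the octamer motif ATGCAAAT, searched on both strands and present in 1.60% of the 32851 promoter windows of the same length. It also holds CCAAT, which is in 33.9% of them. The spaced GR core GNACANNNTGTNC (in 0.387% of all windows) and its shorter element AGAACA (in 16.1%) had no match to these letters in either window on either strand. Aldh1a1 has a further annotated start far upstream, whose window shared no run of more than 8 bases with that of Aldh1a7. Counts per gene name add the transcripts of both starts.

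Of the 7 genes, 5 passed the filter on low counts in both sets: Aldh1a1, Aldh1a7, Aldh3a1, Aldh2 and Aldh3a2. Per kilobase of exon, the highest median level over the 34 libraries was that of Aldh2 (28.7 CPM per kb), followed by Aldh1a7 (19.8), Aldh1a1 (16.7), Aldh3a1 (15.96) and Aldh3a2 (13.2). That order mixes groups and did not hold in all of them. In WT with Dex of set 1 the mean levels were 45.3 CPM per kb for Aldh1a7, 43.3 for Aldh1a1 and 29.1 for Aldh2, and in WT with Dex of set 2 they were 40.0, 41.9 and 33.7. In Y551A-Dim with Dex the mean of Aldh3a1, 33.1 CPM per kb, was above the 27.4 of Aldh2. That mean rests on Dex replicate 1, where Aldh3a1 had 105 CPM, against 46.9 and 40.7 in replicates 2 and 3. In replicates 2 and 3 Aldh3a1 lay below Aldh2 per kilobase. Aldh1a2 and Aldh1a3, the remaining retinaldehyde dehydrogenases, were at or close to 0. Aldh1a2 (mm10 chromosome 9, 71215789 to 71296243, plus strand) had 0 counts in all 34 libraries. For counting error only, this allows up to 3 independent counts, or 0.0376 to 0.0667 CPM depending on the library's total. Both mates of a pair were counted, so counts are not independent and the limit is higher than that. Aldh1a3 (chromosome 7, 66390890 to 66427517, minus strand) had 69 counts in all, at most 6 in a library and 1 or more in 24 of them, so that no response could be measured at this depth. Of the Aldh1a enzymes known for retinoic acid synthesis, Aldh1a1 alone had a transcript that passed the filter, at 69.2 to 217 CPM.

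Aldh1a1 rose with Dex in WT cells of both sets and in Y551A and D647V, and it was not called in Y551A-Dim or D647V-tetra. In WT of set 1 the EtOH libraries had 132, 138 and 135 CPM and the Dex libraries 217, 209 and 215. Every Dex library lay well above every EtOH library, a log2 fold change of 0.66 ± 0.047 (SE, n = 3 per group), or 1.58-fold. The WT of set 2 went from 125 and 117 CPM to 202 and 212, a change of 0.77 ± 0.062 (n = 2 per group). The WT change thus appeared in both sets at a similar size, and it was 0.72 ± 0.030 in a joint fit of the 10 WT libraries, where the sets' responses differed by 0.095 ± 0.060 (edgeR adjusted p = 0.758). The other 4 tested members likewise showed no called difference between the sets.

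In Y551A, Aldh1a1 stood at 74.9, 76.5 and 75.1 CPM with EtOH and 100.0, 105 and 111 with Dex (0.48 ± 0.048). The groups did not overlap, but the highest Dex library of Y551A remained below the lowest EtOH library of WT. Y551A-Dim had 69.2, 70.3 and 72.2 CPM with EtOH and 82.9, 70.1 and 71.7 with Dex (0.087 ± 0.049). Only Dex replicate 1, the library that stands apart, was above the EtOH range, and the change was 0.0083 ± 0.043 without it.

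D647V went from 70.3, 75.6 and 72.9 CPM to 88.7, 90.8 and 93.0 (0.32 ± 0.051), again without overlap. D647V-tetra had 81.7, 73.0 and 74.7 CPM with EtOH and 75.7, 77.8 and 71.7 with Dex, ranges that overlapped (-0.026 ± 0.051). That change ranged from -0.059 to 0.018 in the alternatives, which include a fit without EtOH replicate 1. Within each set the order of the Aldh1a1 group means was WT with Dex, WT with EtOH and then the single mutant with Dex, each apart from the next. The remaining 3 groups lay together at 70.6 to 76.5 CPM and overlapped their neighbours. In set 1 the overlap of Y551A with EtOH (74.9 to 76.5 CPM) and Y551A-Dim with Dex came only from Dex replicate 1, at 82.9. Dex replicates 2 and 3 of Y551A-Dim, at 70.1 and 71.7 CPM, lay below every EtOH library of Y551A.

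Aldh1a7 rose with Dex in the same 4 line-by-set comparisons. WT of set 1 went from 51.7, 54.4 and 53.3 CPM to 94.3, 91.2 and 95.6 (0.82 ± 0.040), and WT of set 2 from 45.7 and 43.7 to 81.5 and 83.6 (0.89 ± 0.060). Y551A had 37.7, 37.6 and 36.2 CPM with EtOH and 56.9, 56.8 and 59.8 with Dex (0.64 ± 0.041), which brought its Dex libraries above the EtOH libraries of WT. D647V reached a like position in set 2, from 33.8, 36.7 and 37.4 to 46.7, 49.4 and 49.3 CPM (0.43 ± 0.049).

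Y551A-Dim kept 39.7, 40.0 and 41.4 CPM with EtOH and 39.6, 40.6 and 40.6 with Dex, and the change of -0.0045 ± 0.041 was 0.0071 without Dex replicate 1. D647V-tetra had 40.2, 36.9 and 38.7 and 38.4, 38.4 and 38.1 CPM (-0.0097 ± 0.049). In both lines the Dex and EtOH libraries overlapped. The 95% intervals of the changes, given as a description, ran from -0.089 to 0.080 and from -0.11 to 0.094. Per1 and Tsc22d3, a GR-induced leucine zipper gene, were called in both lines (edgeR). Per1 rose by 1.22 ± 0.14 in Y551A-Dim and by 2.74 ± 0.14 in D647V-tetra, and Tsc22d3 by 0.72 ± 0.052 and 1.51 ± 0.054. In Y551A-Dim both responded less than in WT (-1.84 ± 0.19 for Per1 and -1.69 ± 0.072 for Tsc22d3, called by edgeR). In D647V-tetra Tsc22d3 responded less than in WT (-1.04 ± 0.084) and in D647V (-0.35 ± 0.076), both called. For Per1 neither difference was called there. Fkbp5, a further GR-induced gene whose product binds the receptor's chaperone complex, rose by 0.87 ± 0.052 in D647V-tetra but was not called in Y551A-Dim (-0.029 ± 0.047), against 1.02 ± 0.046 in WT of set 1 (edgeR). Its response in D647V-tetra was above that of D647V (0.35 ± 0.073) and below that of WT (-0.34 ± 0.082), both called by edgeR. The missing call in Y551A-Dim was thus shared by at least 1 other GR-induced gene.

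**Figure D1:**
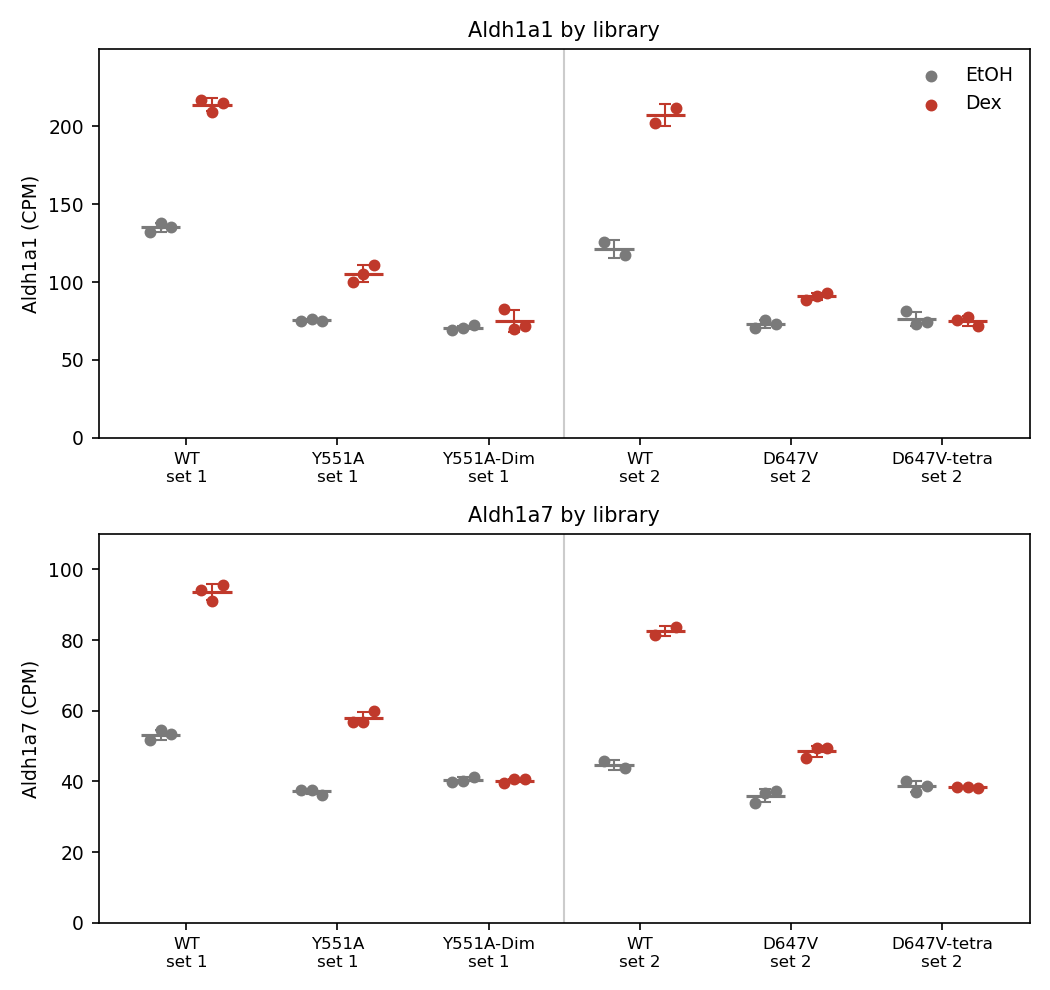
Aldh1a1 (top) and Aldh1a7 (bottom) in CPM on a linear axis for each library, EtOH in grey and Dex in red, with the group mean (line) and SD (bar) for the 3 lines of set 1 (left) and of set 2 (right). Dex libraries stand above EtOH libraries in WT, Y551A and D647V, and the mutant lines start from a lower EtOH level than WT, most clearly for Aldh1a1.

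The counts of calls by contrast are given here with the share of all genes called, and nothing is read from them, since the genes were chosen with these responses known. Aldh1a1 and Aldh1a7 were the 2 of 5 tested members called, both up, in WT of set 1 (3.4% of all genes tested were called in either direction), in Y551A (1.84%), in WT of set 2 (1.72%), in D647V (0.941%) and in WT over both sets (5.1%). In Y551A-Dim 1 of 5 was called, Aldh3a1, beside 1.09% of all genes. In D647V-tetra 0 of 5 were called by edgeR and by DESeq2 (also 0 at an unadjusted p under 0.05), although 19.2% of all genes were called there.

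**Figure D2:**
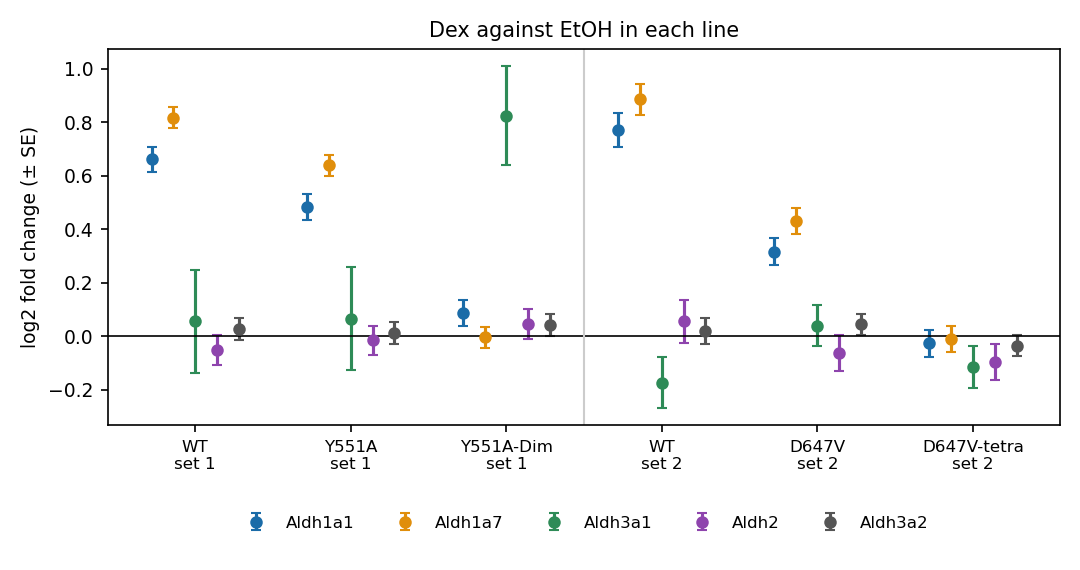
Log2 fold change of Dex over EtOH (points, with SE as bars) for the 5 tested members in each line, set 1 left and set 2 right of the grey line. Aldh1a1 and Aldh1a7 lie between 0.32 and 0.89 in WT, Y551A and D647V and near 0 in Y551A-Dim and D647V-tetra, Aldh2 and Aldh3a2 stay near 0 throughout, and Aldh3a1 departs from 0 in Y551A-Dim with a wide error.

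Whether a line's response differed from that of WT, or from its single-mutant counterpart, was tested as a difference of the log2 responses in edgeR's quasi-likelihood model, with p-values adjusted over all genes. These differences are built from the responses that were known when the genes were listed, and they are not independent support. The comparisons of one set also share the WT libraries. Aldh1a1 responded less in Y551A-Dim than in WT (-0.57 ± 0.067, adjusted p = 2.02e-06, edgeR) and less than in Y551A (-0.40 ± 0.068, adjusted p = 0.00154, edgeR). For Aldh1a7 the differences were -0.82 ± 0.057, adjusted p = 1.10e-10 against WT and -0.64 ± 0.058, adjusted p = 3.13e-08 against Y551A (edgeR). Both genes kept these calls in every alternative that was run, and without Dex replicate 1 of Y551A-Dim the differences from WT were -0.65 and -0.81. In Y551A the responses were -0.18 ± 0.067 (Aldh1a1) and -0.18 ± 0.057 (Aldh1a7) away from those of WT, which was not called (adjusted p = 0.682 and 0.480, edgeR). The 95% intervals of these differences, -0.32 to -0.041 and -0.30 to -0.062, lay below 0 before adjustment.

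In set 2, D647V-tetra responded less than WT for Aldh1a1 (-0.80 ± 0.080, adjusted p = 4.53e-05, edgeR) and Aldh1a7 (-0.89 ± 0.077, adjusted p = 7.88e-06, edgeR), calls kept in every alternative run. D647V itself also responded less than WT, by -0.45 ± 0.080 for Aldh1a1 (adjusted p = 0.0201, edgeR) and -0.45 ± 0.077 for Aldh1a7 (adjusted p = 0.0142). D647V-tetra in turn was below D647V for Aldh1a1 (-0.34 ± 0.072, adjusted p = 0.0343, edgeR) and Aldh1a7 (-0.44 ± 0.069, adjusted p = 0.00409). The steps that involve D647V were thin. The Aldh1a1 difference between D647V and WT was not called without 1 of 7 libraries in turn (adjusted p up to 0.174, without EtOH replicate 2 of WT), that of Aldh1a7 without 1 of 5 (up to 0.127), and that of Aldh1a1 between D647V-tetra and D647V without 1 of 9, while all kept their direction.

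For the 5 tested members together, 2 were called, both lower, in 5 of these 6 differences of response. The share of all genes called was 1.47% for Y551A-Dim against WT, 0.558% for Y551A-Dim against Y551A, 0.188% for D647V against WT, 4.41% for D647V-tetra against WT and 0.873% for D647V-tetra against D647V. For Y551A against WT 0 of 5 were called by edgeR and by DESeq2 (Aldh1a1 and Aldh1a7 had an unadjusted p under 0.05), beside 0.18% of all genes. For the difference between the 2 WT sets it was 0 of 5 by edgeR and by DESeq2 (Aldh3a1 at an unadjusted p of 0.0400), beside 0.0181%.

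The mutant lines also differed from WT before any hormone was added. Levels were known as well when the genes were listed, so the p-values of these EtOH differences are not independent support. With EtOH, Aldh1a1 was lower than in WT by -0.84 ± 0.048 in Y551A, -0.94 ± 0.048 in Y551A-Dim, -0.73 ± 0.056 in D647V and -0.67 ± 0.056 in D647V-tetra on the log2 scale (edgeR adjusted p = 1.72e-13, 2.25e-13, 1.50e-06 and 1.63e-06). No EtOH library of any mutant overlapped the WT libraries of its set. The EtOH libraries of Y551A-Dim (69.2 to 72.2 CPM) also lay below those of Y551A (74.9 to 76.5) without overlap. The lines with and without the added Dim or tetra change differed by -0.097 ± 0.049 and 0.068 ± 0.051, which was not called (adjusted p = 0.147 and 0.458, edgeR). Aldh1a7 was lower in the same 4 lines by smaller amounts: -0.52 ± 0.041, -0.40 ± 0.041, -0.31 ± 0.054 and -0.21 ± 0.054 (adjusted p = 8.06e-11, 6.06e-08, 0.00191 and 0.0116, edgeR). The last of these was not called without EtOH replicate 1 of WT in set 2 (-0.17, adjusted p = 0.107, edgeR) or in a fit of those 2 groups alone (-0.21, adjusted p = 0.108, edgeR). The raw count ratio of Aldh1a1 to Aldh1a7, which is not scaled for length, showed the unequal shift: its EtOH mean was 2.54 and 2.71 in the 2 WT groups, 2.03 in Y551A, 1.75 in Y551A-Dim, 2.03 in D647V and 1.98 in D647V-tetra, and no mutant library reached a WT one.

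Markers of other cell types moved between the same EtOH groups. The 4 endothelial markers, of which Pecam1, Kdr and Tek were below 1 CPM in every library and Cdh5 made up most of the sum, came to 7.46 to 7.83 CPM in WT, 2.95 to 3.81 in Y551A and 2.53 to 2.86 in Y551A-Dim of set 1. In set 2 they came to 6.07 to 6.58 in WT, 2.11 to 2.74 in D647V and 2.09 to 2.38 in D647V-tetra, so the WT libraries were the highest in both sets. The 5 basal epithelial markers, led by Krt14, summed to 5.59 to 5.87 CPM in WT, 19.2 to 20.5 in Y551A and 8.23 to 9.32 in Y551A-Dim, and to 8.52 to 9.07 in WT, 3.66 to 4.22 in D647V and 4.11 to 5.00 in D647V-tetra. Trp63, the defining basal factor, was lower than WT in all 4 mutant lines without overlap, at 1.69 to 2.09 CPM in WT of set 1 and 0.192 to 0.290 in Y551A. Their part in the Aldh differences was not tested.

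Aldh1a7 and Aldh2 were the members that also separated Y551A-Dim from Y551A with EtOH, by 0.12 ± 0.041 (adjusted p = 0.0300, edgeR, not called without 1 of 3 libraries in turn, without the low-count filter or in a fit of the 2 groups alone) and -0.33 ± 0.056 (adjusted p = 4.55e-05). Over the 5 tested members, 3 were called against WT in Y551A, where 42.5% of all genes were called, and 3 in Y551A-Dim (23.3%). Another 2 were called between Y551A-Dim and Y551A (29%), 3 for D647V against WT (7.36%) and 4 for D647V-tetra against WT (18.7%). Between D647V-tetra and D647V 0 were called by edgeR and by DESeq2 (Aldh3a1 alone had an unadjusted p under 0.05), beside 4.53%.

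**Figure D3:**
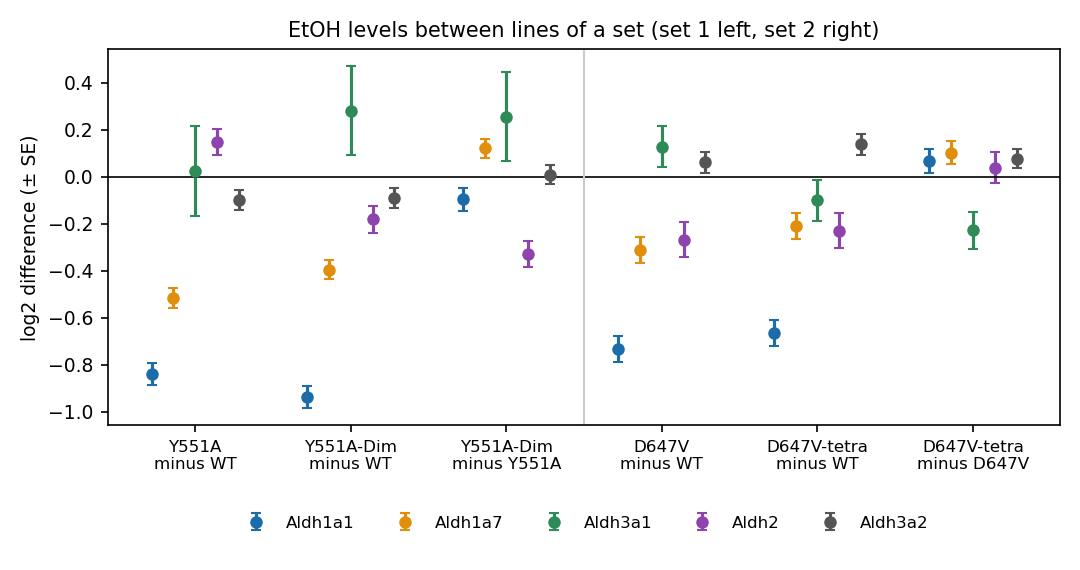
Log2 difference in EtOH level between lines of the same set (points, with SE as bars) for the 5 tested members, set 1 left and set 2 right. Aldh1a1 lies at -0.67 or below and Aldh1a7 at -0.21 or below in all 4 comparisons with WT, while the other members stay within 0.33 of 0.

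Aldh3a1 (mm10 chromosome 11, 61207537 to 61218421, plus strand) was called with Dex in Y551A-Dim and in no other line. Its EtOH libraries there had 36.1, 36.8 and 35.9 CPM and its Dex libraries 105, 46.9 and 40.7. All 3 Dex libraries were above the EtOH range, but Dex replicate 1, the library in which the low-oxygen list stood apart, stood far above both others. The change was 0.82 ± 0.18 with all libraries and 0.27 ± 0.056 without that library, still called by edgeR. It was not called by DESeq2, in a fit of the 2 groups alone, or without any 1 of the 3 EtOH libraries.

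Car9, a carbonic anhydrase strongly induced by low oxygen, had 48.4, 15.7 and 7.15 CPM in the same 3 Dex libraries, in the same order as Aldh3a1, and 5.17, 6.11 and 5.69 in the EtOH libraries. The part of oxygen supply in the Aldh3a1 values was not tested. The gene and the list were chosen after the values of Aldh3a1 had been seen.

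**Figure D4:**
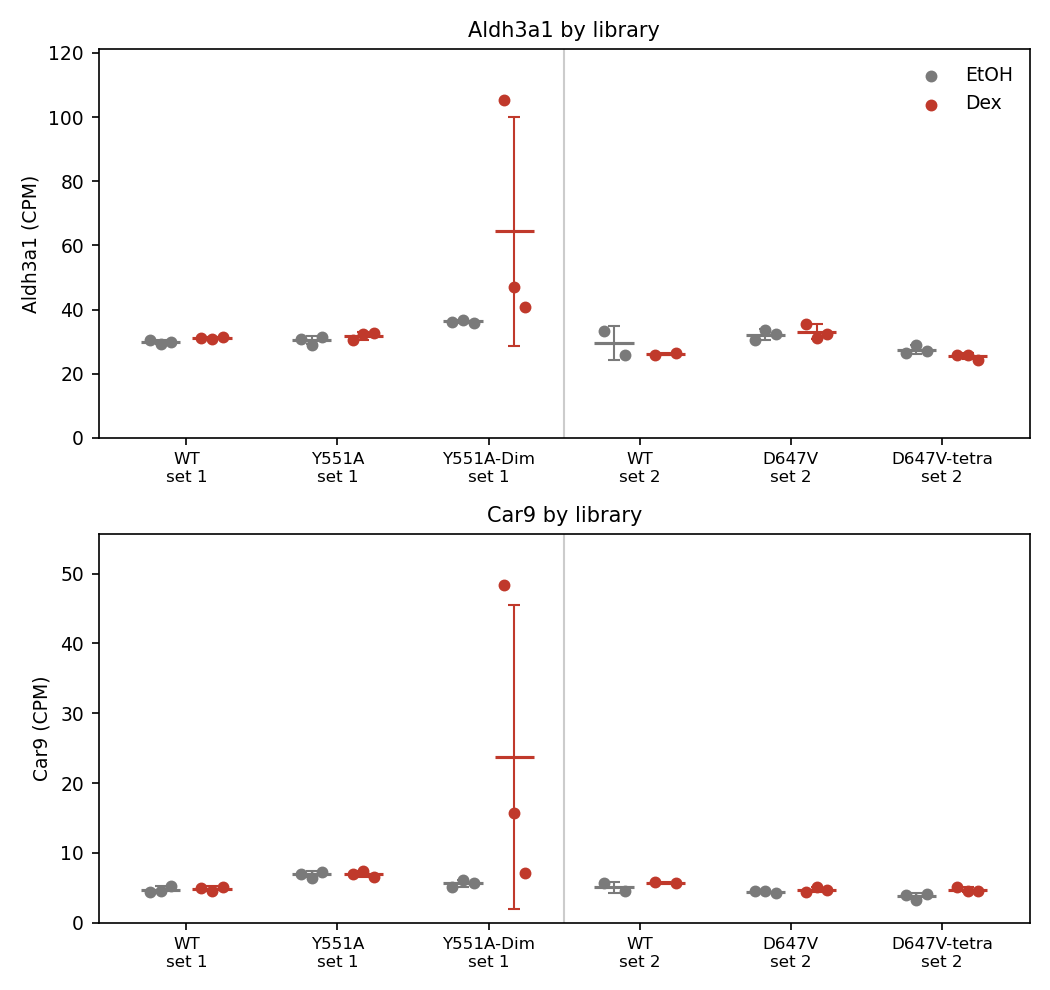
Aldh3a1 (top) and Car9 (bottom) in CPM for each library, EtOH in grey and Dex in red, with group mean (line) and SD (bar). In Y551A-Dim the Dex libraries spread from 40.7 to 105 CPM for Aldh3a1 and from 7.15 to 48.4 for Car9, and the same library is highest in both panels.

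The response of Aldh3a1 in Y551A-Dim exceeded that of WT by 0.77 ± 0.27 (adjusted p = 0.245, edgeR) and that of Y551A by 0.76 ± 0.27 (adjusted p = 0.377), which was not called. The excess of Aldh3a1 fell to 0.22 ± 0.077 and 0.20 ± 0.077 without Dex replicate 1 (adjusted p = 0.343 and 0.587, edgeR), and neither was called. In the other lines its Dex change ranged from -0.17 in WT of set 2, where the EtOH libraries themselves differed (33.2 and 25.7 CPM), to 0.066 ± 0.19 in Y551A. With EtOH, Aldh3a1 was 0.28 ± 0.19 higher in Y551A-Dim than in WT and 0.25 ± 0.19 higher than in Y551A, with no overlap between libraries, and neither difference was called (adjusted p = 0.313 and 0.362, edgeR). Without Dex replicate 1 of Y551A-Dim, which enters the shared estimate of spread, the same differences were 0.28 ± 0.051 and 0.25 ± 0.052 and both were called (adjusted p = 0.000188 and 0.000315, edgeR). In set 2 no Aldh3a1 contrast was called.

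Aldh2 (mm10 chromosome 5, 121566027 to 121593824, minus strand) did not respond measurably to Dex in any line, with changes from -0.096 (D647V-tetra) to 0.055 (WT of set 2) and Dex and EtOH libraries that overlapped in all 6. The widest 95% interval, in WT of set 2, ran from -0.12 to 0.23. Its EtOH level separated the lines instead. In set 1 it was 167, 166 and 179.6 CPM in Y551A, 158, 151 and 155 in WT and 132, 147 and 129.7 in Y551A-Dim, so that Y551A was above WT and Y551A-Dim below it without overlap. The differences from WT were 0.15 ± 0.055 (adjusted p = 0.0351, edgeR) and -0.18 ± 0.056 (adjusted p = 0.0182, edgeR). In set 2, WT had 177 and 156 CPM, D647V 135, 139.8 and 139.7 and D647V-tetra 130.1, 148 and 147, differences from WT of -0.27 ± 0.074 and -0.23 ± 0.074 (adjusted p = 0.0362 and 0.0391, edgeR).

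Apart from the one between Y551A-Dim and Y551A, these Aldh2 calls rest on few libraries. Without EtOH replicate 3 of Y551A the first became 0.11 (adjusted p = 0.176, edgeR), and the second was lost without any of 4 libraries. Without EtOH replicate 1 of WT in set 2 those of set 2 became -0.18 (adjusted p = 0.380) and -0.13 (adjusted p = 0.347, edgeR). The D647V call was also lost without any 1 of the 3 EtOH libraries of D647V (adjusted p = 0.0755 to 0.0893, edgeR). That of D647V-tetra was lost without its EtOH replicate 1 (adjusted p = 0.148) and in a fit of the 2 groups alone (adjusted p = 0.0977, edgeR).

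Aldh3a2 (mm10 chromosome 11, 61223417 to 61267464, minus strand) lies 4996 bases beyond the end of Aldh3a1 on the opposite strand and varied little. Its libraries spanned only 68.7 to 79.4 CPM in all 34, and its Dex changes ran from -0.035 to 0.045, with 95% intervals that lay between -0.084 and 0.13. In Y551A-Dim, where Aldh3a1 rose, it had 71.4, 74.4 and 72.3 CPM with EtOH and 79.0, 71.9 and 73.8 with Dex (0.042 ± 0.041). The WT of set 1 did not overlap, at 77.4, 77.8 and 77.3 with EtOH and 79.4, 78.4 and 79.0 with Dex, although the difference was only 0.027 ± 0.041. A single Aldh3a2 contrast was called, the EtOH level of D647V-tetra against WT (0.14 ± 0.044, adjusted p = 0.0393, edgeR), and leaving out any of the 5 libraries compared, dropping the low-count filter or fitting the 2 groups alone ended that call.

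**Figure D5:**
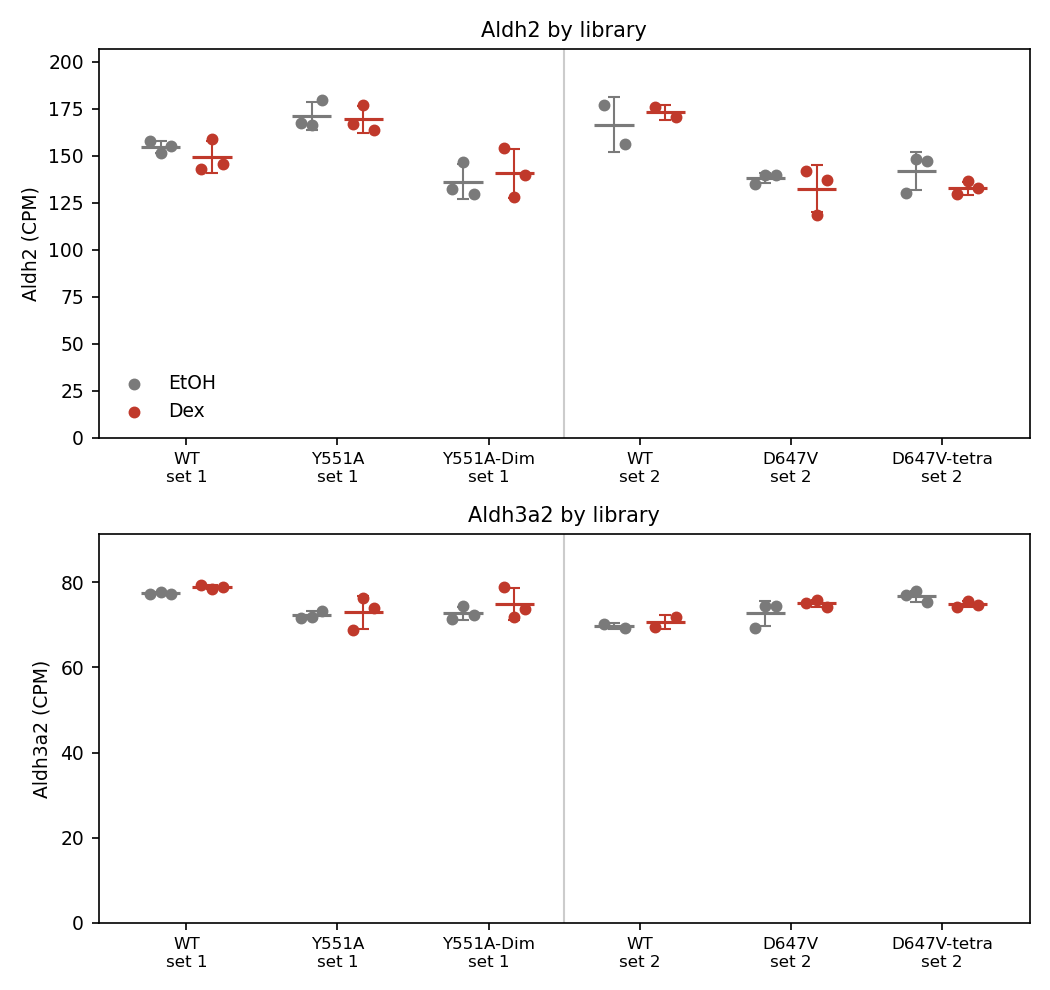
Aldh2 (top) and Aldh3a2 (bottom) in CPM on a linear axis for each library, EtOH in grey and Dex in red, with group mean (line) and SD (bar). Dex and EtOH libraries of Aldh2 overlap in every line while the lines sit at different levels, and Aldh3a2 varies only from 68.7 to 79.4 CPM.

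The rest of the family was described from all 14 other gene names beginning with Aldh, of which 8 were tested. None of the 8 was called with Dex by edgeR in WT, Y551A, Y551A-Dim or D647V. At an unadjusted p under 0.05 edgeR had 1 in Y551A-Dim and 0 in the others. DESeq2 called 1 in Y551A-Dim, at an adjusted p, and 0 in the others. The list medians ran from -0.054 (WT of set 1) to 0.084 (WT of set 2), beside medians of -0.013 and 0.0019 over all genes. In D647V-tetra 1 of 8 fell, Aldh3b1 (-0.35 ± 0.092, adjusted p = 0.0149, edgeR), beside 19.2% of all genes called. With EtOH, 5 of 8 differed between Y551A and WT, 2 higher and 3 lower, where 42.5% of all genes were called. Aldh6a1, the mitochondrial enzyme of valine breakdown, was 0.65 ± 0.089 higher in Y551A than in WT and -0.60 ± 0.089 apart in Y551A-Dim against Y551A (adjusted p = 1.08e-06 and 6.84e-06, edgeR). Against WT of set 2 Aldh6a1 was lower, by -0.30 ± 0.068 in D647V and -0.27 ± 0.068 in D647V-tetra (adjusted p = 0.0117 and 0.00926, edgeR). Aldh18a1, which makes the precursor of proline, was -0.55 ± 0.045 in Y551A and -0.41 ± 0.045 in Y551A-Dim relative to WT (adjusted p = 1.56e-10 and 1.98e-07). Against WT of set 2 it was 0.23 ± 0.049 in D647V and 0.17 ± 0.049 in D647V-tetra (adjusted p = 0.00877 and 0.0242), and neither was called without EtOH replicate 1 of that WT, nor the latter in a fit of the 2 groups alone. Aldh18a1 and Aldh3b1 are named here after their values were seen.

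Retinoic acid synthesis, transport, breakdown and reception were covered by a list of 30 genes, 17 of them tested in set 1 and 20 in set 2. In every line except D647V-tetra exactly 1 of them was called with Dex, and it was Dhrs9, a short-chain dehydrogenase that can oxidise retinol to the retinaldehyde used by Aldh1a1. It rose by 0.61 ± 0.043 in WT of set 1, 0.50 ± 0.053 in WT of set 2, 0.35 ± 0.043 in Y551A, 0.22 ± 0.044 in Y551A-Dim, 0.35 ± 0.043 in D647V and 0.47 ± 0.044 in D647V-tetra (adjusted p from 4.91e-11 in WT of set 1 to 0.00747 in Y551A-Dim, edgeR). Dhrs9 was thus called in both lines in which Aldh1a1 and Aldh1a7 were not, though in Y551A-Dim the call was lost in a fit of the 2 groups alone (adjusted p = 0.129) and without EtOH replicate 3 (adjusted p = 0.0507, edgeR). Its response in Y551A-Dim was smaller than in WT (-0.39 ± 0.061, adjusted p = 0.000186, edgeR). No difference of Dex response between D647V-tetra and WT was called for Dhrs9. In D647V-tetra 5 of 20 were called: Dhrs9 and the receptor gene Rara up, and Rdh11, Rdh14 and Fabp5 down, a share near the 19.2% of all genes. The list medians, 0.030 in WT of set 1 and -0.017 in D647V-tetra, were close to those of all genes (-0.013 and -0.0012).

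With EtOH, 8 of the 17 retinoic acid genes differed between Y551A and WT, 2 higher and 6 lower, a share near the 42.5% of all genes called. Fabp5, a carrier of fatty acids and retinoic acid, stood -0.85 ± 0.062 from WT in Y551A, 0.48 ± 0.070 in D647V and 0.66 ± 0.070 in D647V-tetra (adjusted p = 2.11e-11, 0.000401 and 1.51e-05, edgeR), so the direction was not shared by the mutant lines. Dhrs3, which reduces retinaldehyde back to retinol, was -0.998 ± 0.28 in Y551A-Dim relative to Y551A (adjusted p = 0.00679, edgeR), and was not called without EtOH replicate 3 of Y551A (adjusted p = 0.0507, edgeR).

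A list of 23 other enzymes that make or remove aldehydes had 17 tested genes in set 1 and 18 in set 2. None was called with Dex in WT, Y551A, Y551A-Dim or D647V by edgeR or DESeq2, though 4 in Y551A-Dim and 1 in each WT had an unadjusted p under 0.05. In D647V-tetra 5 of 18 fell (9 called by DESeq2): Esd, Adh5, Adh7, Akr1a1 and Akr1b3, with log2 changes of -0.16 to -0.22 (edgeR). The share of all genes called there was 19.2%. Without Dex replicate 3 of D647V-tetra, these 5 genes, Aldh3b1, Rara, Rdh11, Rdh14 and Fabp5 were not called with Dex in that line (adjusted p from 0.0533 for Adh7 to 0.187 for Akr1a1, edgeR). All 10 genes, Fabp5 with Dex, changed by less than the 1.5-fold used for naming and are named after their values were seen. The aldehyde list median there was -0.15 beside -0.0012 for all genes. With EtOH, 10 of 17 differed between Y551A and WT, 4 higher and 6 lower, beside 42.5% of all genes. Aox1, an aldehyde oxidase that can also form retinoic acid, was 1.41 ± 0.096 higher in Y551A and 0.94 ± 0.097 higher in Y551A-Dim than in WT (adjusted p = 5.01e-12 and 6.95e-08, edgeR). In D647V-tetra Aox1 was lower than in WT of set 2 (-0.40 ± 0.11, adjusted p = 0.0203, edgeR). Adh1, an alcohol dehydrogenase that also oxidises retinol, was 1.11 ± 0.27 higher in Y551A-Dim than in WT (adjusted p = 0.00395, edgeR). Cbr2, a carbonyl reductase, was lower than WT in all 4 mutant lines, from -0.26 ± 0.058 in Y551A to -1.18 ± 0.092 in D647V-tetra (adjusted p = 0.000543 and 9.07e-07, edgeR).

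The genes whose levels varied most like each member were taken as the 3 with the highest Pearson correlation over the 12 group means, centred within a set, among 10184 genes. The points share libraries and depth, and the correlations are descriptions only. For Aldh1a1 they were Tmem107 (r = 0.960), Aldh1a7 (r = 0.952) and Tut1 (r = 0.944). For Aldh1a7 they were Ttpal (r = 0.970), Pex11a (r = 0.965) and Aldh1a1 (r = 0.952), so that the 2 neighbours on chromosome 19 were among the 3 nearest to each other. Aldh3a1 was closest to Pgm1 (r = 0.890), Hmox1 (r = 0.883) and Ccl2 (r = 0.877), Aldh2 to Lin7c (r = 0.975), Pls3 (r = 0.975) and Xpnpep2 (r = 0.973), and Aldh3a2 to Ddx55 (r = 0.942), Rhot2 (r = 0.934) and Cryzl1 (r = 0.930). Aldh3a2 was not among the nearest genes of its neighbour Aldh3a1. The Aldh3a1 mean of Y551A-Dim with Dex, 64.3 CPM against 36.3 with EtOH, includes Dex replicate 1 at 105 CPM. The correlations of Aldh3a1 were not recomputed without that library.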

How the data were processed

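Total RNA was sequenced as 100 bp paired reads in 34 libraries. The deposited values are raw read counts per gene name; per the file headers they were made by the authors with featureCounts 2.0.3 in reverse-stranded mode (option 2), counting both mates, and per the submitters' processing notes after bcl2fastq 2.17, cutadapt and STAR on mm10. Kit and batch of single libraries are not given in the sources used here. A spike-in of 5% Drosophila cells is described and was not used here.

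The counts were fitted with edgeR 4.0.16 (R 4.3.3, limma 3.58.1): filterByExpr, TMM scaling, a group-mean quasi-likelihood model for set 1 (16140 genes, 12 residual degrees of freedom), for set 2 (17535, 10) and for WT of both sets (16540, 6). A gene was called at a Benjamini-Hochberg adjusted two-sided p below 0.05 over all genes of a contrast. The SE is the absolute log2 change divided by the root of the F statistic. Levels are CPM on the TMM-scaled total. Alternatives were DESeq2 1.42.0, DESeq2 size factors, no filter, only the groups compared, a replicate block and each library left out. The script was tested on simulated data. No 2 libraries agreed within sampling noise.

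The members, the lists of retinoic acid and aldehyde genes and the tests were chosen with earlier results of these data known. Named by rule are all members, called genes of the lists that are at least 1.5-fold apart in a contrast, 4 check genes (Nr3c1, Per1, Tsc22d3, Fkbp5) and the 3 nearest genes per member; the text says which others were chosen after their values were seen. Promoters come from RefSeq (GRCm38.p6), searched with Python 3.11.15 and Biopython 1.88.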

Additional observations from a re-analysis of the deposited data

Results flagged for a closer look

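The 10 called differences of Dex response between lines all concern Aldh1a1 and Aldh1a7, and each was singled out because the difference itself passed the test (edgeR). They are built from responses that were known when the genes were listed and are not independent support. In set 1 the response of Y551A-Dim minus that of WT was -0.57 for Aldh1a1 and -0.82 for Aldh1a7 on the log2 scale, and minus that of Y551A -0.40 and -0.64. In set 2 the response of D647V minus that of WT was -0.45 and -0.45, that of D647V-tetra minus WT -0.80 and -0.89, and that of D647V-tetra minus D647V -0.34 and -0.44. All 10 are lower in the line named first. Those of both genes between D647V and WT, and that of Aldh1a1 between D647V-tetra and D647V, were not called without some single libraries. Groups held 2 or 3 libraries, so no test for a single extreme library was run; Dex replicate 1 of Y551A-Dim is described with its values above.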

How the results depend on the processing

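No called value of the 5 tested members changed direction in the alternatives recomputed for it, nor did a called value of the 20 other named genes that were recomputed. The Dex change of Fkbp5 in Y551A-Dim, which was not called, was -0.029 and ranged from -0.067 to 0.028 with single libraries left out, above 0 without Dex replicate 1 and, at 0.013, without EtOH replicate 2. Calls of EtOH baselines in set 2 numbered 7 and fell to 4 in a fit of only the groups compared; the cause was not tested. With single libraries left out, calls of Dex responses ranged from 4 to 5 in set 1 (5 with all libraries) and stayed at 4 in set 2, differences of response from 4 to 6 in set 1 (4) and from 3 to 6 in set 2 (6, and 3 without EtOH replicate 2 of D647V), and EtOH baselines from 6 to 11 in set 1 (8) and from 4 to 7 in set 2 (7, and 4 without EtOH replicate 1 of WT or EtOH replicate 2 of D647V). With 1 WT library left in a group of set 2, that library is assumed to vary like the others. Of the recomputed values, 20 of 269 of Aldh1a1, 12 of 269 of Aldh1a7, 16 of 58 of Aldh2, 5 of 69 of Aldh3a1 and 9 of 35 of Aldh3a2 lost a call, and 1, 0, 0, 11 and 2 gained one. Among the 20 other named genes, 49 of 611 lost a call. The Dex change of Aldh3a1 in Y551A-Dim was not called with DESeq2 or in the 2 groups alone. The excess of that response over WT and over Y551A was called without the low-count filter and without Dex replicate 3 of Y551A-Dim, and the excess over WT also without Dex replicate 2. These fits keep Dex replicate 1, and without it the excess was 0.22 and 0.20 and was not called. The EtOH differences of Aldh3a1 between Y551A-Dim and both other lines were also called without the filter and in the 2 groups alone, where that of Aldh1a1 between Y551A-Dim and Y551A was called too. Depth limits Aldh1a2 and Aldh1a3.

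Deviations of same-numbered Dex and EtOH libraries correlated at -0.28 to -0.020 in set 1 and -0.69 to 0.30 in set 2 (medians -0.074 and -0.47). The 2 WT pairs of set 2 have the same value by construction. The replicate numbers were therefore not taken as pairs in the main fit. Whether libraries were paired under other numbers cannot be told from these values. With the replicate number as a block, EtOH baselines in set 2 gave 4 calls, differences of response in set 2 also 4, and all other counts were unchanged. The EtOH calls lost were Aldh2 in D647V and D647V-tetra and Aldh3a2 in D647V-tetra, each against WT. The differences lost were those of Aldh1a1 for D647V against WT (adjusted p = 0.0696) and D647V-tetra against D647V (adjusted p = 0.0730, edgeR). With the 2 WT Dex numbers of set 2 crossed in the block, a choice made after seeing the data, both counts were again 4.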
